A study of Mus musculus with 8 samples.

Results

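The miR-297, miR-466, miR-467 and miR-669 families are groups of rodent miRNAs, most of which are encoded as tandem copies in an intron of the mouse gene Sfmbt2. All rows of the microglia miRNA table whose name begins with miR-297, miR-466, miR-467 or miR-669, followed by a letter, a hyphen or the end of the name, were taken as members. This gave 80 of 1966 mature miRNAs, of which 6 belonged to miR-297, 31 to miR-466, 13 to miR-467 and 30 to miR-669. The rule used names alone and no measured value, but these families were chosen with earlier results of these data known.

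The study sorted microglia, the resident macrophages of the brain, from male C57BL/6 mice aged 3 months (young) or 21 months (aged). Live CD11b+ CD45low CD206- cells were taken by FACS, and their small RNA gave 4 libraries for young and 4 for aged mice. A library stands for 1 mouse, apart from that of aged mouse 4, for which 2 mice were pooled. The input was 10000 to 40000 cells, and the labels name no transgene or treatment.

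A miRNA is cut from a hairpin precursor, whose arms give a 5p and a 3p mature form. Its seed, bases 2 to 8 counted from the 5′ end, pairs with target mRNAs and lowers their translation and stability. The host gene Sfmbt2 encodes a Polycomb group protein, is imprinted in extraembryonic tissue, and is best known together with its intronic miRNAs for its part in placental development. The hairpins sit in simple repeats, so mature forms of different copies can be alike or the same, and a short read may match several of them.

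In the GENCODE annotation of GRCm38, 81 hairpin genes carried the names of these families, 6 of them Mir297, 28 Mir466, 17 Mir467 and 30 Mir669. Of these, 71 lay inside Sfmbt2 (chr2:10370510-10595253, plus strand), all in intron 11 of the 22 introns of its transcript with most exons, and all on the strand of the gene. None overlapped an exon of any Sfmbt2 transcript. The first began at position 10466663 and the last ended at 10518279, a span of 51.6 kb. Inside Sfmbt2 there were 12 copies of Mir669a, 10 of Mir467a and 8 of Mir466b, and neighbouring Mir467a copies were 2413 to 4880 bases apart, with a median of 2462. The remaining 10 hairpins lay elsewhere, among them Mir466i at chr13:17747473-17747593 on the plus strand, within Cdk13 but opposite to its direction.

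The RefSeq table of mouse miRNAs (GRCm38.p6) held the mature sequence of 8 of the 80 members, all from hairpins outside Sfmbt2. They are shown because their letters make the repeats visible, with the seed in capitals, from 5′ to 3′.
miR-669n: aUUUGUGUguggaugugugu
miR-466j: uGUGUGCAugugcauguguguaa
miR-466k: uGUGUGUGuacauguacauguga
miR-467h: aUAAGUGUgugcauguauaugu
miR-466q: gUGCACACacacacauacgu
miR-467g: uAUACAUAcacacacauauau
miR-467f: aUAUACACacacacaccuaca
miR-466i-3p: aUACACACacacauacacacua
The first 4 are rich in U and G and the other 4 in A and C. A run of at least 8 alternating U and G, or of alternating C and A, was present in 6 of the 8, against 13 of the 1679 mature miRNAs in the table (0.774%). The 13 include these 6. The 8 seeds were all different. Within these libraries miR-466j and miR-466k had a single count each, and the other 6 were at 0.

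Library totals ran from 208379 to 298820 miRNA counts in young and from 150322 to 235124 in aged mice, and between 315 and 441 miRNAs had a count. A count of 3, taken as the floor, stood for 10.0 to 20.0 CPM, where CPM is a count divided by the miRNA total of its library and scaled to 1000000. The protocol describes no molecular identifiers, so floors and intervals cover counting error only. The labels and methods give no batch. All 5 myeloid markers were present and summed to 63396 to 75324 CPM in young and 48186 to 72398 in aged mice. Neuronal markers (5 of 5 present) summed to 927 to 2450 and 1090 to 2508 CPM, oligodendrocyte markers (3 of 3) to 269 to 524 and 258 to 519, and choroid plexus and epithelial markers (5 of 5) to 141 to 528 and 302 to 527. Red cell markers (2 of 3, with miR-486a-5p at 0) summed to 110 to 339 and 233 to 932 CPM, endothelial markers (2 of 2) to 3.35 to 84.8 and 4.25 to 111, and smooth muscle markers (2 of 2) to 68.6 to 111 and 93.1 to 299. The ages overlapped in every one of these sums, but not every single marker was level between the ages. In edgeR's quasi-likelihood test, miR-155-5p (myeloid) had a log2 fold change of 2.34, aged over young (Benjamini-Hochberg adjusted p = 7.5e-05). For miR-451a (red cell) it was 1.42 (adjusted p = 0.0024), and no other marker in that test had an adjusted p under 0.05. The part of these cells in the values given here was not tested.

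Detection of the families was broad and shallow. At least 1 count was found for 61 of the 80 members (76.3%), against 666 of all 1966 miRNAs (33.9%), and 19 members were at 0 in every library. A count in all 8 libraries was found for 21 members (26.3%), against 236 of all 1966 miRNAs. The filter of the study, at least 5 counts in at least 1 mouse of an age, was passed by 44 members and by 419 miRNAs in all, and 17 further members had counts below it. Just inside that filter were miR-669h-5p and miR-669i with 5 summed counts and miR-466m-5p with 8. Just outside it were miR-669a-3-3p, miR-467c-3p and miR-669d-5p, none of which reached 5 counts in a library. Over all 8 libraries the 44 members that passed had a median of 51.5 summed counts, and the 419 miRNAs 84.

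Single libraries differed in how many members they showed, and depth did not set the order. The young mice had counts for 32, 49, 46 and 35 members (mice 1 to 4), and the aged mice for 35, 40, 40 and 39. Young mouse 1 had the deepest library and the fewest members, and young mouse 2 the most. When every library was thinned to 150322 counts, the depth of aged mouse 1, the young mice showed 32, 45, 43 and 32 members and the aged mice 35, 39, 36 and 39, so the ages overlapped either way.

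The 5p arm carried most of the counts. Of the 33 rows of a 5p arm 32 had a count, of the 35 rows of a 3p arm 24 had one, and of the 12 rows without an arm in their name 5 had one. Among all other miRNAs of the table the shares were 34.1% for 5p and 32.2% for 3p. The 5p rows held 71.7% of the member counts, or 81.8% when rows with the same counts were entered once. Of 33 hairpin names with both arms in the table, the 5p arm was counted more in 21 and the 3p arm in 11. The names in which the 3p arm led were all 3 of miR-297, 7 of miR-466 and miR-467d. However, the 3 of miR-297 rest on 1 shared row and 4 of those of miR-466 on another, and miR-467d shares its 3p row with miR-467a. Among the names in which the 5p arm led, miR-467a and miR-467b share a 5p row, as do miR-669a and miR-669p. The tally of names thus counts some rows more than once on both sides. With shared rows entered once, the 5p arm held more counts in every family, with 45.3 against 24 in miR-297, 998 against 373 in miR-466, 1053 against 77 in miR-467 and 1010 against 214 in miR-669. In miR-466 this rested on miR-466i-5p, which alone gave 738 of the 5p counts, and without it the 3p arm led. In miR-297 the 3p arm led over all rows, with 72 counts against 45.3.

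**Figure D1:**
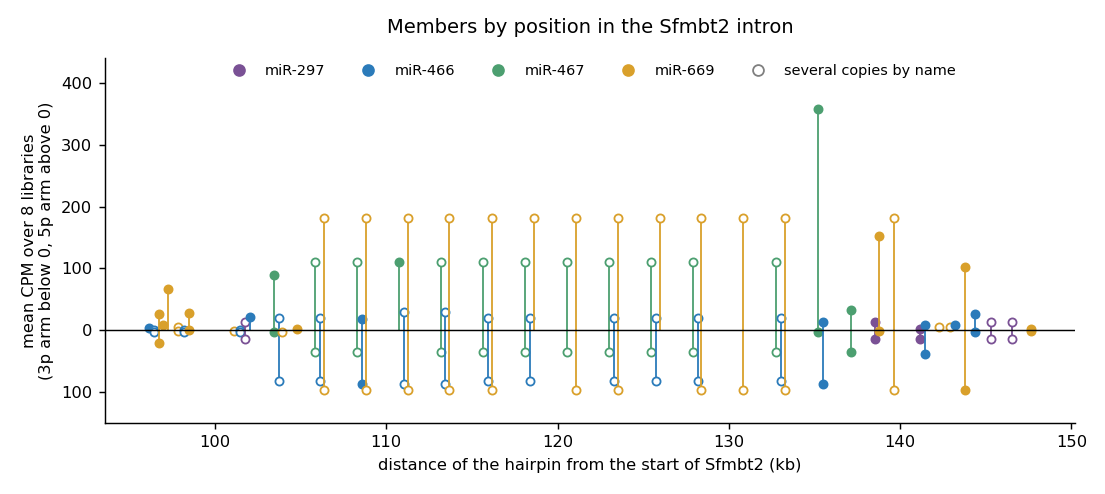
Mean CPM over the 8 libraries of the 5p arm (above 0) and 3p arm (below 0) of members against the distance of their hairpins from the start of Sfmbt2 in kb, coloured by family. Open points mark names with several copies, which show the value of the 1 row they share. Mir669a-3 and Mir669d-2 are also open but show rows of their own, miR-669a-3-3p and miR-669d-2-3p. Filled points are not all separate measurements, since some have the same counts as another name, as miR-467b-5p has those of miR-467a-5p. miR-467e-5p stands highest.

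Many rows repeated the counts of another row. In 9 sets, 24 members had the same counts as another member in all 8 libraries. Among rows with at least 20 summed counts, 15 of 35 members (42.9%) shared all their counts with another row, against 4 of 298 other miRNAs (1.34%). The best counted sets were miR-669a-5p with miR-669p-5p (315 counts), miR-467a-5p with miR-467b-5p (198), miR-669a-3p with miR-669o-3p (167), and the 3p arms of miR-466a, miR-466c, miR-466e and miR-466p (152). The 3p arms of miR-297a, miR-297b and miR-297c shared 24 counts. A set of 5 rows with only 1 count, in young mouse 2, held miR-466f, miR-466f-5p, miR-466j, miR-466k and miR-669h-3p. A single count does not show that rows are the same measurement, and the sequences of miR-466j and miR-466k printed above differ. The members held 5069 counts over all rows and 3798 with each set entered once, so 25.1% of the member counts stood on repeated rows. The 61 detected members thus gave 46 different sets of counts, with the 5 rows of a single count taken as 1, and the 44 that passed the filter gave 33.

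A few members carried fractions of a read. Of 316 nonzero member values, 18 were fractional, and they belonged to miR-297a-5p, miR-466b-3p, miR-466b-5p and miR-466f-3p. The largest denominator of these fractions was 8 for both arms of miR-466b, of which the annotation has 8 copies. It was 4 for miR-297a-5p, which matched 4 hairpins by name, and 3 for miR-466f-3p, which has 4 copies. In the 18 other miRNAs of the table with fractions it was 2 or 3. In contrast, the rows of miR-467a and miR-669a, with 10 and 12 copies, held whole counts only. Counts of miR-466b-3p followed those of the shared miR-466a-3p row closely, lower by 0 to 1.63 counts in a library. Rows that were only nearly alike stayed separate wherever rows of the same counts were entered once. For these rows, how the reads were split between copies with the same sequence is not given in the sources used here, and their levels are uncertain to that extent.

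The families together took a small share of the miRNA counts, between 0.222% and 0.369% of a library. Their summed level was 2320, 3608, 3691 and 2482 CPM in young mice 1 to 4 and 2694, 3298, 2215 and 3118 CPM in aged mice 1 to 4. Young mice 2 and 3 were highest and aged mouse 3 lowest, and the ages overlapped. The mean was 3025 ± 724 CPM (SD, n = 4) in young and 2831 ± 482 CPM (SD, n = 4) in aged mice, a ratio of 0.936. With rows of the same counts entered once, the means were 2220 ± 540 and 2184 ± 395 CPM (SD, n = 4 each), a ratio of 0.984. In sorted bulk RNA, fewer cells of a type and less RNA per cell cannot be told apart.

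Among single families, miR-669 and miR-466 were the most abundant and miR-297 was near the floor. miR-669 summed to 1081 ± 264 CPM in young and 889 ± 178 CPM in aged mice (SD, n = 4 each). miR-466 summed to 1029 ± 311 and 1163 ± 385 CPM, and miR-467 to 859 ± 194 and 694 ± 170 CPM (SD, n = 4 each). The ratio of aged to young was thus 0.823 for miR-669, 1.13 for miR-466 and 0.808 for miR-467, each within the overlap of the mice. miR-297 summed to 56.1 ± 36.8 CPM in young and 85.7 ± 63.9 CPM in aged mice (SD, n = 4 each), and rested on 117 counts in all. Its libraries ran from 4.29 CPM in young mouse 4 to 177 CPM in aged mouse 4. These family sums take every row, so rows with the same counts enter more than once. With such rows entered once, miR-297 had 69.25 counts, at 37.2 ± 27.0 CPM in young and 46.5 ± 29.0 CPM in aged mice (SD, n = 4 each). Aged mouse 4 was then at 77.6 CPM. The ratios of aged to young were then 1.25 for miR-297, 1.24 for miR-466, 0.873 for miR-467 and 0.826 for miR-669.

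**Figure D2:**
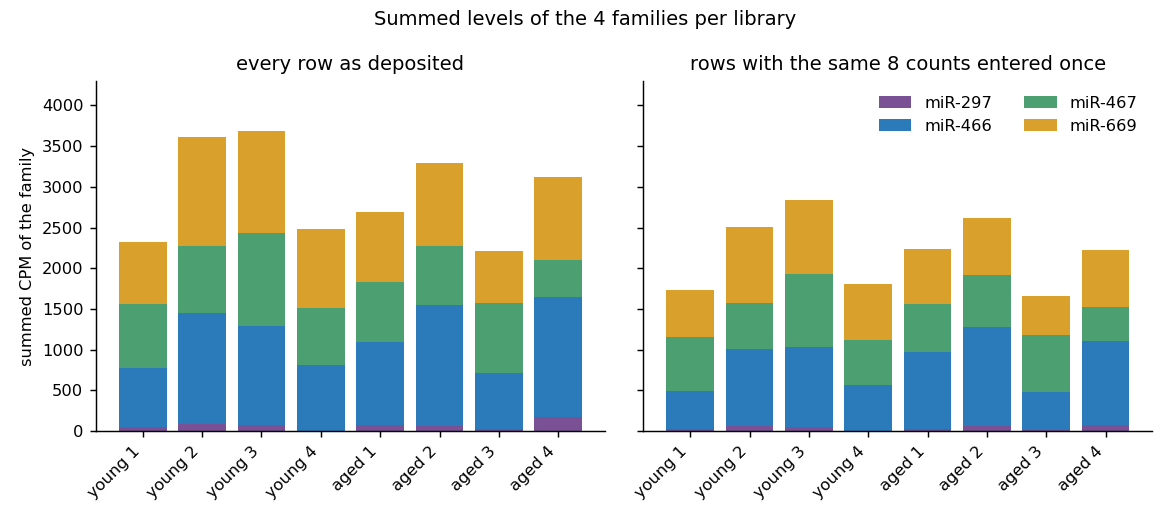
Summed CPM of each family, stacked, in the 4 young and 4 aged libraries, with every row (left) and with rows of the same counts entered once (right). Young mice 2 and 3 are highest in the left panel, at 3608 and 3691 CPM, and the ages overlap in both.

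The most counted member was miR-466i-5p, whose only named hairpin lies in Cdk13 and not in Sfmbt2. Young mice 1 to 4 gave 34, 67, 202 and 75 counts of it, and aged mice 1 to 4 gave 97, 119, 51 and 93, which was 114, 322, 745 and 322 CPM against 645, 705, 217 and 516 CPM. Young mouse 3 was highest and young mouse 1 lowest of all 8, so the young mice spanned the aged ones. The Wilson 95% intervals of these extremes, for counting error alone, were 649 to 855 CPM and 81.4 to 159 CPM. The mean was 375 ± 265 CPM in young and 521 ± 217 CPM in aged mice (SD, n = 4 each). The log2 fold change was 0.57 (standard error 0.32; edgeR's quasi-likelihood test, Benjamini-Hochberg adjusted p = 0.49). The exact permutation p was 0.40. Without young mouse 3 the log2 fold change was 1.22 and the adjusted p = 0.015 in the same edgeR test, while the exact permutation p was 0.11. Without young mouse 1 or aged mouse 2 the log2 fold change was 0.38 or 0.37, so the value depended on single libraries in both directions. miR-466i-5p took between 4.90% and 24.0% of the member counts of a library, and its rank among all miRNAs by summed counts was 91. Its partner miR-466i-3p, printed above, was at 0 in every library.

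Members with all their hairpins inside Sfmbt2 made up most of the rest. These 64 rows had 4089 counts, 51 were detected and 39 passed the filter. The 9 rows with hairpins only outside it had 740 counts, of which 738 were those of miR-466i-5p, and 3 were detected. The Sfmbt2 rows summed to 2505 ± 522 CPM in young and 2175 ± 269 CPM in aged mice (SD, n = 4 each), with overlap between the ages.

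Within miR-467, the 5p members differed in level and in pattern across mice. miR-467e-5p, from a hairpin at chr2:10505721-10505807, had 365, 211, 487 and 287 CPM in young and 339, 492, 400 and 288 CPM in aged mice (mice 1 to 4). The mice of both ages covered the same range, and the log2 fold change was 0.20 (standard error 0.33; edgeR, Benjamini-Hochberg adjusted p = 0.88). miR-467c-5p, from chr2:10473931-10474027, had 181, 106, 95.9 and 98.7 CPM in young and 86.5, 47.4, 38.3 and 55.5 CPM in aged mice. In CPM on library totals it was the only member that passed the filter and did not overlap between the ages, 1 of 44 (2.27%). The share over all 419 miRNAs tested was 4.77%. The gap was narrow, since the Wilson 95% interval of the lowest young library was 65.4 to 140 CPM and that of the highest aged library 50.5 to 148 CPM. The fitted log2 fold change was -1.08 (standard error 0.53; edgeR, Benjamini-Hochberg adjusted p = 0.38), and an exact permutation test of log2(CPM + 1), two-sided, gave p = 0.029, the smallest that 4 against 4 mice allow. Scaled by TMM factors, as in the edgeR fit, the ages overlapped, and the exact permutation p was 0.057. With any 1 of the 4 young mice left out, the exact permutation p was also 0.057. Without young mouse 1, the highest, the fitted log2 fold change was -0.59 (edgeR, unadjusted p = 0.34).

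The shared row of miR-467a-5p and miR-467b-5p had 90.4, 235, 148 and 133 CPM in young and 113, 41.5, 97.8 and 22.2 CPM in aged mice. Aged mice 2 and 4 lay below every young mouse, and aged mice 1 and 3 among them. The log2 fold change was -1.04 (standard error 0.49; edgeR, unadjusted p = 0.035, Benjamini-Hochberg adjusted p = 0.34), with an exact permutation p of 0.086. On the 3p side, the shared row of miR-467a-3p and miR-467d-3p ran from 1 to 24 counts in young and from 3 to 13 in aged mice.

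Within miR-669, the best counted row was that of miR-669a-5p and miR-669p-5p, with 147, 307, 159 and 223 CPM in young and 99.8, 249, 115 and 155 CPM in aged mice. Mouse 2 was highest at both ages, and the ages overlapped (log2 fold change -0.34, standard error 0.40; edgeR, Benjamini-Hochberg adjusted p = 0.80). miR-669o-5p, from chr2:10514300-10514395, had 141, 158, 103 and 120 CPM in young and 46.6, 71.1, 42.5 and 139 CPM in aged mice. Aged mice 1 to 3 lay below all young mice and aged mouse 4 within their range (log2 fold change -0.76, standard error 0.50; edgeR, Benjamini-Hochberg adjusted p = 0.53, exact permutation p = 0.086). Leaving out aged mouse 4 removes the overlap by construction, and the exact permutation p is then 0.029, the smallest that 4 against 3 mice allow. miR-669c-5p, from chr2:10509296-10509404, had means of 155 ± 37.3 CPM in young and 151 ± 70.7 CPM in aged mice (SD, n = 4 each). The shared row of miR-669a-3p and miR-669o-3p was highest in young mouse 3 (177 CPM) and aged mouse 4 (166 CPM), against 50.2 to 96.0 CPM in the other 6 mice.

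Apart from miR-466i-5p, the best counted rows of miR-466 were 3p arms. The row shared by the 3p arms of miR-466a, miR-466c, miR-466e and miR-466p had 83.7, 125, 77.4 and 81.5 CPM in young and 26.6, 88.9, 72.3 and 139 CPM in aged mice. Aged mouse 1 was lowest and aged mouse 4 highest, on both sides of the young mice. The fitted log2 fold change was -0.10 (standard error 0.53; edgeR, Benjamini-Hochberg adjusted p = 0.94). The arms of miR-466b were unlike each other. miR-466b-3p was counted in all 8 libraries, at 88.4 ± 21.7 CPM in young and 77.6 ± 42.8 CPM in aged mice (SD, n = 4 each). For miR-466b-5p the counts of young mice 1 to 4 were 0, 10.8, 0.125 and 0, against 6, 3.88, 1 and 6.88 in the aged ones, so a single young mouse held nearly all its young counts.

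The members of miR-297 were at the limit of detection. For the row shared by the 3p arms of miR-297a, miR-297b and miR-297c, the counts of young mice 1 to 4 were 4, 2, 4 and 0, against 3, 0, 2 and 9 in aged mice 1 to 4. Those of miR-297c-5p were 3, 3, 3 and 1 against 0, 9, 1 and 2, and those of miR-297a-5p were 0, 9.25, 4.5 and 0 against 2, 1.5, 0 and 3. In each row a single mouse, aged mouse 4, aged mouse 2 or young mouse 2, held the highest count. Most of these values are at or near the floor of 3 counts, and no difference between the ages was detectable at this depth.

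**Figure D3:**
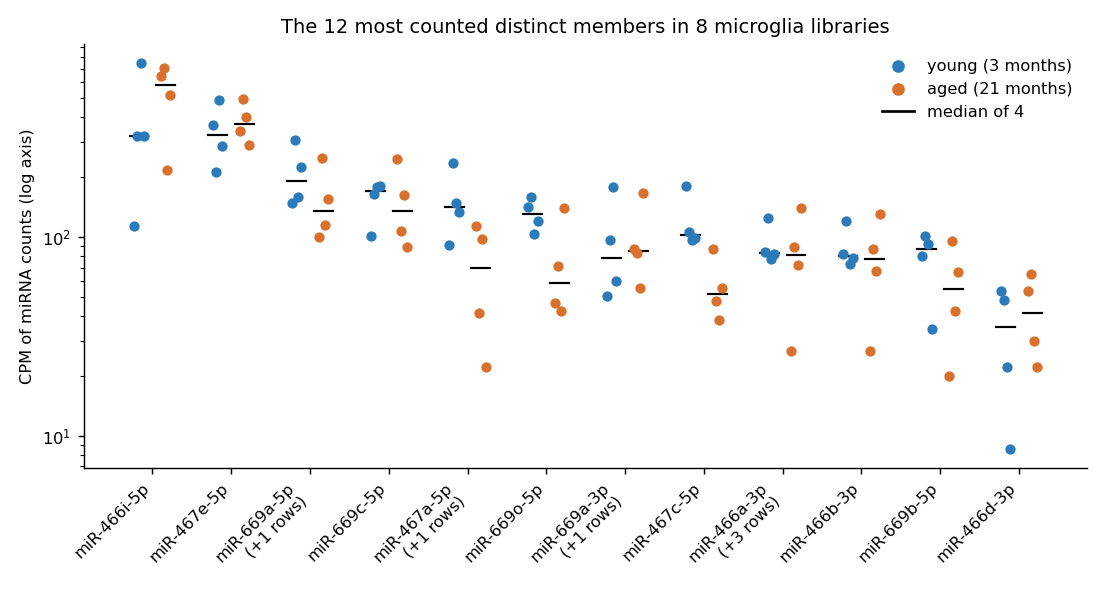
CPM on a log axis of the 12 most counted members with distinct counts, with a point per mouse, young and aged in 2 colours, and a line at the median of each age. miR-466i-5p and miR-467e-5p lie highest, and miR-467c-5p is the only one of the 12 in which the ages do not overlap in CPM on library totals.

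The comparison of aged with young mice asked whether these miRNAs changed with age in microglia. With edgeR's quasi-likelihood test across all 419 miRNAs, none of the 44 members that passed the filter had a Benjamini-Hochberg adjusted p under 0.05, against 16 of the 419 (3.82%), 2.15% of them higher and 1.67% lower in aged mice. The lowest adjusted p of a member was 0.34. At an unadjusted edgeR p under 0.05 there were 3 members (6.82%), against 12.2% of all miRNAs, and these were miR-467a-5p, miR-467b-5p and miR-467c-5p. All 3 had the lower level in aged mice, so 6.82% of the members were lower there at that p, against 7.16% of all miRNAs. No member had the higher level there at that p, against 5.01% of all miRNAs. As the former pair shares all counts, they are 2 profiles. DESeq2 called 0 members at an adjusted and 1 at an unadjusted p under 0.05, and limma 0 and 2. With the biological coefficient of variation over all 419 miRNAs at 0.488, the libraries of an age varied widely. Each library came from other mice, so differences between mice and between preparations cannot be told apart.

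Fold changes of the members were centred where those of all miRNAs were. Of the 44 members 23 had a fold change below 0 (52.3%), against 52.5% of the 419, and the median log2 fold change was -0.08 against -0.07. With rows of the same counts entered once, the median of the 33 was 0.03, of the other sign. The single values ran from -3.15 to 2.60, and the 17 members over 100 summed counts from -1.08 to 0.57. By family the median was 1.01 for the 5 miR-297 rows, of which 3 are the same, -0.10 for the 17 of miR-466, -0.43 for the 8 of miR-467 and -0.29 for the 14 of miR-669. The outermost value, -3.15, belonged to miR-669h-5p and miR-669i, whose 5 counts all came from young mouse 3, so it depends on the prior count of the fit and is no bound.

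**Figure D4:**
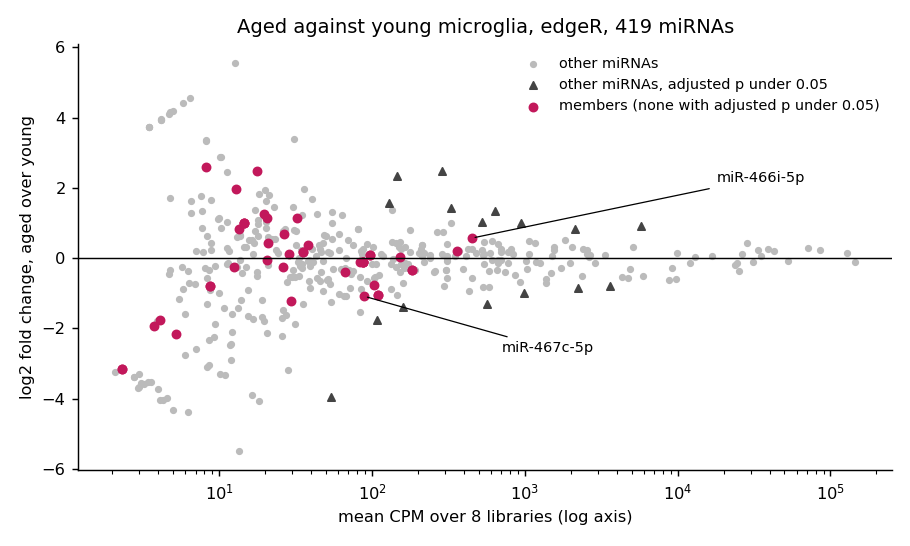
Fitted log2 fold change (aged against young, edgeR) against mean CPM over the 8 libraries on a log axis for the 419 miRNAs tested, with the 44 members in red. The members have a median of -0.08, and none has an adjusted p under 0.05.

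Of the other miRNAs listed for comparison, miR-574-5p was the only one to pass the filter. It is printed because its repeat, with the seed in capitals, is longer than that of any member sequence above, although it comes from chr5:64970328-64970350 and bears no family name.
miR-574-5p: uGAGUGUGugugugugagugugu
It had 232 counts in all, at 115 ± 40.9 CPM in young and 157 ± 58.0 CPM in aged mice (SD, n = 4 each), with overlap between the ages (log2 fold change 0.46, standard error 0.44; edgeR, Benjamini-Hochberg adjusted p = 0.73). miR-1187 had 3 counts, and miR-568, miR-3082-5p and miR-207 were at 0. The sequences of miR-568 and miR-207 hold no run of at least 8 alternating U and G, or C and A.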

How the data were processed

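Small RNA of sorted microglia was sequenced in 8 libraries, 4 per age, grouped by the titles. The authors processed reads with miRMaster 2.0 (Bowtie 1.2.3, at most 100 matches per read) against GRCm38 and miRBase 22.1. The values they deposited are estimated counts for each mature miRNA, without normalization, with fractions in 68 of 3173 nonzero values. The tests had been planned for whole counts, so values were rounded for the count models and kept as they were elsewhere. Library totals were 150322 to 298820 counts. The members and lists were chosen with earlier results of these data known.

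CPM was computed on the miRNA total of a library. edgeR 4.0.16 (R 4.3.3; TMM factors, quasi-likelihood fit without bias adjustment, two-sided, Benjamini-Hochberg over the 419 miRNAs) was the test across miRNAs, after checks on simulated data. Single members were also compared by exact permutation tests (two-sided, 70 assignments, log2(CPM + 1)) in Python 3.11.15 with numpy 2.4.6, and sums over members got no test. No pair of libraries looked like copies, as the lowest chi-square of the 28 pairs was 10.1 times its degrees of freedom. Alternatives were DESeq2 1.42.0, limma 3.58.1, the bias-adjusted fit, other scalings and filters, robust estimation, fractions kept, the replicate number as a block, rows with the same counts entered once (added after the data were seen), and each library left out. One scaling used the totals by which the study divided, recovered from its group medians. Same-numbered mice are different animals, so tests were unpaired.

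Members were named if they were among the 10 most counted, had an unadjusted p under 0.05, did not overlap between ages, carried fractions, led a family or arm, stood for a set with shared counts, or lay at the edge of the filter. Hairpins were matched to members by name.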

Additional observations from a re-analysis of the deposited data

Results flagged for a closer look

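In 8 of the 54 groups of 4 mice examined, 1 mouse stood apart from the other 3, by the gap to its nearest neighbour as a share of the whole range. The limit used, a share of 0.829, is passed by about 1 in 20 groups of independent normal values, or 2.7 of 54. Counts near 0 with ties are not such values, and the family sums share rows with the members. The 8 groups therefore cannot be set against that number. Of members counted in every library, miR-467c-5p had this in young mice (share 0.886, with young mouse 1 at 181 CPM) and the shared row of miR-466a-3p also in young mice (0.869, with young mouse 2 at 125 CPM). For miR-466b-5p it was young mouse 2 (0.991), which held 10.8 counts. In the remaining groups all mice but 1 were at the same value, usually 0, so that the share was 1. These were miR-466d-5p in aged mice (aged mouse 4, 4 counts), miR-466m-5p in aged mice (aged mouse 2, 1 count), miR-467c-3p in young mice (young mouse 3, 4 counts) and in aged mice (aged mouse 3, 1 count), and miR-669h-5p in young mice (young mouse 3, 5 counts).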

How the results depend on the processing

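In all settings that kept every library, 0 members had an adjusted p under 0.05. Leaving out each library gave 0 to 1 calls, the call being miR-466i-5p without young mouse 3. Members at an unadjusted p under 0.05 numbered 1 with DESeq2, 0 with the recovered totals, 0 with at least 10 counts in every library, and 0 to 4 with a library left out (0 without aged mouse 2 and 1 without aged mouse 4). Among all 419 miRNAs the bias-adjusted fit called 2. Members that passed in at least 2 mice of an age numbered 29, in all 4 mice 18, and after thinning 39. The log2 ratios of family sums kept their direction in every scaling, and with a library left out all but that of all families (-0.20 to 0.014) and that of miR-297 (-0.027 to 0.91) did so.

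Of 18 distinct members followed, 10 kept the sign of the fitted log2 fold change and 8 did not. The value of miR-669c-5p was -0.017 with upper-quartile factors, -0.043 with library totals, -0.0097 with recovered totals, -0.024 without a filter, -0.00024 with at least 10 counts, -0.12 with limma and -0.051 with the replicate block. With limma miR-297c-5p was at -0.41 and miR-297a-5p at 0.41, and the latter at 0.37 with the block.

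With a library left out, fitted values ran from -0.018 to 0.42 for miR-467e-5p, -0.31 to 0.22 for miR-669c-5p, -0.27 to 0.64 for miR-669a-3p, -0.46 to 0.18 for miR-466a-3p, -0.43 to 0.17 for miR-466b-3p, -0.19 to 1.22 for miR-467a-3p and -0.64 to 0.18 for miR-297a-5p. Differences of mean log2(CPM + 1) ran from -0.39 to 0.098 for miR-669c-5p, -0.20 to 0.44 for miR-669a-3p, -0.69 to 0.094 for miR-466a-3p, -0.67 to 0.073 for miR-466b-3p, -0.42 to 1.63 for miR-297a-3p, -1.35 to 0.57 for miR-297c-5p, -0.39 to 1.44 for miR-297a-5p and -2.14 to 0.047 for miR-466d-5p. The cause was not tested.

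Replicate numbers did not pair the mice (correlations of deviations 0.042, -0.046, 0.00025 and 0.11), and with the block 0 members were called and 4 had an unadjusted p under 0.05. Summing members of identical mature sequence was not run. Depth limits most members, as a library resolves no level under 10.0 to 20.0 CPM.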
